A study of Mus musculus with 35 samples.

Results

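The genes described here are 10 of the 53465 genes in a bulk RNA-seq table of the embryonic mouse brain. They were chosen by name for their place in the MHC class I presentation pathway: *B2m*, *H2-K1*, *H2-D1*, *H2-T23*, *Tap1*, *Tap2*, *Tapbp*, *Psmb8*, *Psmb9* and *Nlrc5*. Neural, mural, endothelial and microglial cells were sorted by FACS (fluorescence-activated cell sorting) from 3 wild-type brains at E14.5, which gave 12 bulk libraries. Each brain goes by its neural library's label (N-340, N-343, N-346). Single cells from 4 sort gates on 3 wild-type plates were sequenced with mCEL-Seq2, a method that counts transcripts by molecular identifiers, and 686 cells with more than 1500 transcripts were kept.

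For the bulk libraries, neural cells were negative for CD45, CD41, CD11b, PECAM1, CD102 and PDGFRβ. Mural cells, the pericytes and smooth muscle cells of vessel walls, were high for PDGFRβ and lacked the other markers. Endothelial cells, which line the vessels, carried PECAM1 and CD102. Microglia, the resident macrophages of the brain, carried CD11b with a medium level of CD45. No treatment, transgene or mutation was given for any of these samples, and the strain was not given. The single-cell gates used the same kind of markers with other limits. The well labels give the microglial gate as CD41 positive and CD45 medium, whereas the study describes CD11b and CD45 for microglia. The microglial gate held 128 kept cells, against 225 endothelial, 210 mural and 123 neural cells, and plate 3 gave only 6 to 14 of them per gate. The table of 1 library of plate 3 carries another number than its list of wells and was tied to it by elimination. It holds 20 of the kept cells, among them all microglial and neural cells of plate 3, whose gate rests on that match.

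MHC class I molecules show fragments of a cell's own proteins at its surface, where killer T cells and natural killer cells read them. A heavy chain, such as the products of *H2-K1*, *H2-D1* and *H2-T23*, pairs with the invariant light chain β2-microglobulin, the product of *B2m*. Peptides are cut by the proteasome, whose immune form contains the subunits encoded by *Psmb8* and *Psmb9*. They are pumped into the endoplasmic reticulum by the TAP transporter, a dimer of the *Tap1* and *Tap2* products, and loaded with the help of tapasin, the product of *Tapbp*. NLRC5 is a transactivator of the class I genes, which also respond to interferons, and microglia are known to present antigen in the inflamed brain.

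Microglia had the highest mean level of all 10 genes in the bulk libraries. With limma on log2(normalized count + 1), 8 of 10 genes were called higher in microglia than in endothelial cells at an adjusted p under 0.05 and 0 lower, where 17% of the 19765 genes tested were called higher and 15.3% lower. Against mural cells 9 of 10 were called higher and 0 lower, beside 20.1% and 17.9% of all genes. Against neural cells the count was again 9 higher and 0 lower, beside 29.3% and 30.4%. *Psmb8*, *Psmb9* and *Nlrc5* reached the minimum mean of 10 normalized counts only through microglia, so the filter favoured a difference in them. Of the other 7 genes, 6, 6 and 7 were called higher in the 3 comparisons. The median log2 difference of the 10 genes was 3.89, 5.32 and 4.81 in these comparisons, whereas that of all genes tested was 0.07, 0.05 and −0.08. Taking *Nlrc5*, which had 0 reads in every mural library, at its lower bound gave a median of 5.49 against mural cells. The p-values measure the spread between these 3 brains. Neural RNA was extracted with another kit and its libraries were made with TruSeq, the others with SMART-Seq v4 and Nextera XT, so kit and population cannot be told apart in any comparison with neural cells. In bulk samples, moreover, fewer cells that express a gene and less of its RNA per cell cannot be told apart.

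**Figure D1:**
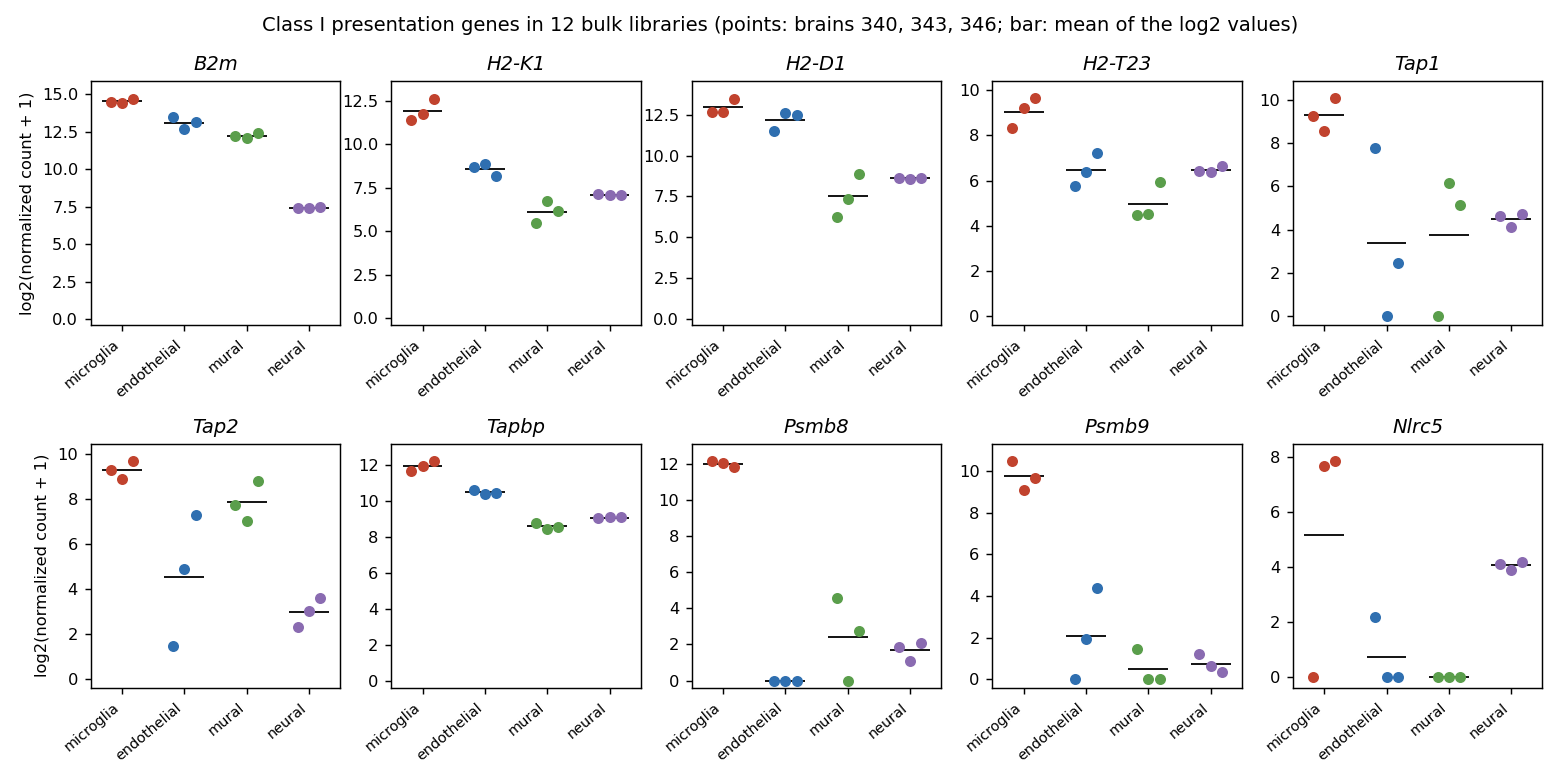
Level of each of the 10 genes as log2(normalized count + 1), on the vertical axis, in the 12 bulk libraries. Points are the libraries of brains N-340, N-343 and N-346 from left to right, and bars are means of the log2 values. *Psmb8* and *Psmb9* are at most 22.7 normalized counts outside microglia, *B2m* falls in steps from microglia to neural cells, and 1 microglial library is at 0 for *Nlrc5*.

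The libraries held 17638358 to 98414914 reads on genes, and 1 read was worth 0.264 to 1.77 normalized counts. Summed markers of each labelled population were highest in its own libraries. The 6 microglial markers reached 234682 to 236018 normalized counts in microglia and at most 176 elsewhere. Microglial libraries also held all 5 border macrophage markers (summed level 14920.4 to 18717, at most 994 elsewhere) and all 4 monocyte and neutrophil markers (2093 to 6419, at most 37.2 elsewhere, with all 4 at 0 in mural cells). All 5 erythroid markers were found in endothelial libraries (10463 to 28481) and neural libraries (8138 to 10989.9), against 218 to 1701 in the others. Mural libraries held all 5 fibroblast markers (3565 to 4954, at most 268 elsewhere). These markers moved together with several of the differences below, and their part in the bulk results was not tested.

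*B2m* encodes the light chain that every class I molecule needs. It lies on chromosome 2 of GRCm38 from 122147686 to 122153083, on the plus strand. Microglia held 23454, 22159 and 26970.5 normalized counts of *B2m* in brains N-340, N-343 and N-346. Endothelial cells held 11349, 6633 and 9189, mural cells 4818, 4368 and 5468, and neural cells 167, 171 and 178. No population overlapped with another, and the order was microglia, endothelial, mural and neural cells. Mean levels were 24195 ± 2490 (SD, n = 3), 9057 ± 2361, 4885 ± 553 and 172 ± 5.53, so microglia held 2.67 times the endothelial level and 141 times the neural level. On the log2 scale microglia exceeded endothelial cells by 1.45 (SE 0.18, adjusted p = 9.27e-05), and endothelial cells exceeded mural cells by 0.86 (SE 0.18, adjusted p = 0.00471). Endothelial and mural cells exceeded neural cells by 5.68 and 4.82. The difference between endothelial and mural cells was 0.68 without brain N-340 (adjusted p = 0.0793) and 0.92 without brain N-346 (adjusted p = 0.052), neither of which passed the threshold.

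*H2-K1* encodes H2-K, a classical heavy chain that presents peptides to killer T cells, on chromosome 17 from 33996017 to 34000347 on the minus strand. In microglia it was at 2642, 3470 and 6293 normalized counts in brains N-340, N-343 and N-346. The endothelial libraries held 411, 458 and 288, the mural libraries 43.3, 104 and 70.4, and the neural libraries 139, 132 and 134. Here the populations again did not overlap, but mural cells came last. Microglia were 10.7-fold above endothelial cells (log2 difference 3.35, SE 0.40, adjusted p = 6.52e-05) and 57-fold above mural cells (5.80, adjusted p = 8.84e-07). Endothelial cells were above mural cells by 2.46 and above neural cells by 1.48, although the latter call was lost without brain N-343 (1.33, adjusted p = 0.0747). The lower mural level relative to neural cells was not called (−0.97, SE 0.40, adjusted p = 0.0591).

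*H2-D1*, the gene of the second classical heavy chain present in these data, lies on chromosome 17 from 35262730 to 35267499 on the plus strand. Microglial libraries held 6705, 6523 and 11605 normalized counts. Endothelial libraries followed closely with 2925, 6213 and 5877, whereas mural libraries held 76, 164 and 462 and neural libraries 389.9, 386 and 395. Microglia and endothelial cells did not overlap, but their log2 difference of 0.75 (SE 0.55) did not pass the test (adjusted p = 0.338). Both were far above the other populations. Endothelial cells exceeded mural cells by 4.72 (SE 0.55, adjusted p = 9.49e-05) and neural cells by 3.60 (adjusted p = 0.00022). The mural and neural libraries overlapped, with a difference of −1.11 that was not called (adjusted p = 0.107), though it was −1.79 without brain N-346 (adjusted p = 0.027).

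*H2-T23* encodes Qa-1, a non-classical heavy chain that is read by natural killer receptors, on chromosome 17 from 36029773 to 36032855 on the minus strand. It was at 319, 585 and 793 normalized counts in microglia. The endothelial values were 53.2, 82.3 and 149, the mural values 21, 21.7 and 61.1, and the neural values 85.5, 82 and 99.9. Endothelial libraries overlapped with neural and with mural ones, and mural cells had the lowest mean. Microglia exceeded endothelial cells by 2.59 (SE 0.58, adjusted p = 0.00513) and neural cells by 2.56 (adjusted p = 0.00278). Without brain N-343 these were 2.48 (adjusted p = 0.0798) and 2.43 (adjusted p = 0.0509). Endothelial cells exceeded mural cells by 1.48, which was not called (adjusted p = 0.0793) but passed with the brain as a block (adjusted p = 0.0453).

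Reads of class I heavy chain genes are hard to assign, since these genes are close copies of each other, and how reads with several matches were counted was not given in the sources used here. The levels of *H2-K1*, *H2-D1* and *H2-T23* are uncertain to that extent. *H2-T23* also lies inside an antisense gene, *A930015D03Rik*, whose mean level was 16.5 to 45.3 normalized counts in the 4 populations, and *B2m* lies inside *Patl2* on the other strand, which had 52.5 in microglia and at most 1.55 elsewhere.

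The promoters of the light chain and the classical heavy chains are shown because their genes are on different chromosomes yet both were highest in microglia. The X2 part of the class I promoter module contains the letters TGACG, and the Y part contains CCAAT, written here as ATTGG on the opposite strand. In the RefSeq sequences of GRCm38.p6, 3 genes held TGACG and ATTGG exactly 20 bases apart within the 250 bases before their start in RefSeq. For *H2-D1*, *Tapbp*, *Psmb8* and *Psmb9* that start lies so far downstream of the GENCODE start that the whole window lies inside the gene span in the text, as do 154 of 250 bases for *H2-T23*. Each stretch of 30 bases is written 5′ to 3′ on the gene's strand, with TGACG and ATTGG in capitals.
B2m, chr2:122147609-122147638, plus strand: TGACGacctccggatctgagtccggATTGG
H2-K1, chr17:34000359-34000388, minus strand: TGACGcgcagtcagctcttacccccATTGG
H2-D1, chr17:35262993-35263022, plus strand: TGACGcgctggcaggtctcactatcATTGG

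The *H2-K1* and *H2-D1* stretches shared 23 of 30 bases, whereas *B2m* shared 13 with *H2-K1* and 12 with *H2-D1*. The choice of stretches fixed 10 of these bases, so that 13, 3 and 2 of the 20 free bases were shared. The pair at this spacing was noticed in these sequences and then counted. It was found on either strand in 30 of 32851 promoter windows of 250 bases, or 0.0913%. Windows were given for 8 of the 10 genes, but for neither *Tap2* nor *Nlrc5*. Alone, TGACG or its reverse CGTCA was found in 5 of the 8 windows (*B2m*, *H2-K1*, *H2-D1*, *Tap1* and *Psmb9*) and in 17.8% of all windows. CCAAT or ATTGG was found in 7 of 8 and in 33.8% of all windows.

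The longer windows of *B2m* and *H2-K1* also show elements read by interferon and NF-κB pathways. Capitals mark the same pair of motifs as above, a match to the NF-κB consensus and a match to an IRF core. The core was searched as AANNGAAA on both strands.
B2m, chr2:122147437-122147685, plus strand: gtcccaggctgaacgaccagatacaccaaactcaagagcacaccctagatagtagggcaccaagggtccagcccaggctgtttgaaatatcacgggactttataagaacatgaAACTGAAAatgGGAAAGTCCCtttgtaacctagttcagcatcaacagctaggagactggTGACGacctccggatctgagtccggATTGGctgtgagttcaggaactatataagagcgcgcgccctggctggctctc
H2-K1, chr17:34000348-34000597, minus strand: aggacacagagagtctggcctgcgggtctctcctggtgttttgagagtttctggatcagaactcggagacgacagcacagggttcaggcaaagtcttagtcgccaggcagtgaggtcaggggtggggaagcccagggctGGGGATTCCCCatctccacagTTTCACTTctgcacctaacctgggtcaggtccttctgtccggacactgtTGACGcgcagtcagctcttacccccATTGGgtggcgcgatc

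The IRF core was in 4 of the 8 windows (*B2m*, *H2-K1*, *H2-D1* and *H2-T23*) and in 21.3% of all windows. The NF-κB consensus was in 3 (*B2m*, *H2-K1* and *H2-D1*) and in 5% of all windows, and its overlapping matches in *H2-K1* form a single run of capitals. *Psmb8* held none of these 4 motifs. A match is a run of letters and does not show that a factor was bound, and no motif was set against the expression values.

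Light and heavy chain levels were not in the same proportion in the 4 populations. Levels were divided by the length of each gene's exons to compare genes with each other, which gives normalized counts per kb. *B2m* stood at 28133 ± 2895 per kb in microglia, 10532 ± 2745 in endothelial cells, 5680 ± 643 in mural cells and 199.7 ± 6.44 in neural cells (SD, n = 3). The sum of *H2-K1*, *H2-D1* and *H2-T23* was 4813 ± 1828 per kb in microglia, 2105 ± 708 in endothelial cells, 127 ± 88.3 in mural cells and 228 ± 5.11 in neural cells. The ratio of *B2m* to this sum was 4.53, 6.59 and 7.56 in the microglial libraries from lowest to highest, and 2.97, 4.4 and 10.2 in endothelial ones, which overlapped. In mural cells it was 28.3, 47.7 and 109, above every other library. In neural cells it was 0.851, 0.886 and 0.889, below every other library. Mural cells thus held much *B2m* RNA beside little of these 3 heavy chains, and neural cells about as much of one as of the other. The sum leaves out the other heavy chain genes, among them *H2-T22*, which was highest in mural cells (below). The mural ratio would be lower with *H2-T22* in the sum. Coverage along a transcript can differ between the kits, and its part in the neural ratio cannot be told apart from the population.

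**Figure D2:**
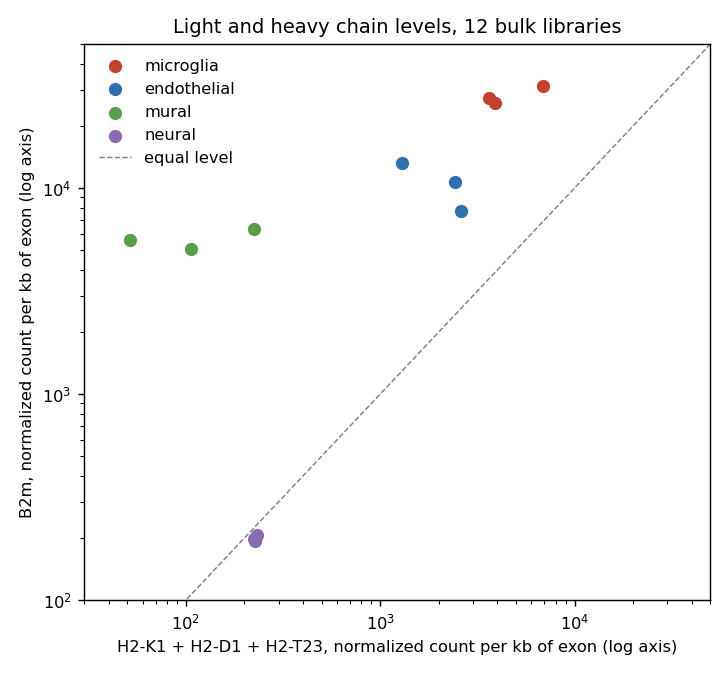
Normalized count per kb of exon of *B2m* (vertical log axis) against the summed level of *H2-K1*, *H2-D1* and *H2-T23* (horizontal log axis), 1 point per bulk library, with a dashed line where both are equal. Mural libraries lie farthest above the line, at ratios of 28.3 to 109, and neural libraries lie just under it, at 0.851 to 0.889.

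*Tap1* and *Tap2* encode the 2 chains of the peptide transporter, on chromosome 17 from 34187553 to 34197225 and from 34203527 to 34216321, both on the plus strand. *Tap1* was at 604, 379 and 1063 normalized counts in microglia, with the brains in the order above. The endothelial libraries held 214, 0 and 4.52, the mural libraries 0, 70.8 and 34.8, and the neural libraries 24, 16.6 and 25.6. All microglial libraries were above all others, but the endothelial and mural libraries ranged from 0 to 214. Accordingly the SE of every *Tap1* difference was 1.90 on the log2 scale. Microglia exceeded endothelial cells by 5.88 (adjusted p = 0.0351), mural cells by 5.51 (adjusted p = 0.0405) and neural cells by 4.78 (adjusted p = 0.0485). None of these passed with the brain as a block (adjusted p = 0.0593, 0.0656 and 0.074), with a pseudocount of 0.1 (0.0814, 0.0893 and 0.163) or with no minimum (0.0587, 0.0665 and 0.0698). On recovered reads the differences were 3.24, 4.25 and 4.91 with edgeR (adjusted p = 0.218, 0.109 and 0.0514). DESeq2 gave 3.22 against endothelial cells (adjusted p = 0.124) and called *Tap1* against mural and neural cells. Without the neural libraries those to endothelial and mural cells were not called (adjusted p = 0.064 and 0.0707). Without brain N-343 the differences were 4.54, 7.07 and 4.96 (adjusted p = 0.194, 0.0578 and 0.105), and without brain N-346 they were 5.03, 5.82 and 4.51 (adjusted p = 0.286, 0.204 and 0.253).

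*Tap2* held 623, 481 and 831 normalized counts in microglia. Mural cells came next with 215, 129 and 445, ahead of endothelial cells with 1.77, 28.4 and 158 and neural cells with 4.01, 7.2 and 11.1. Mural cells had the second highest mean for this gene, as they did for *Psmb8* below, whereas endothelial cells did for 7 of the 10 and neural cells for *Nlrc5*. Mural cells exceeded neural cells by 4.88 (SE 1.18, adjusted p = 0.00487), a call that was lost without brain N-343 (5.32, adjusted p = 0.0549). Microglia did not overlap with mural cells, but their difference of 1.44 was not called (adjusted p = 0.375). Endothelial cells were 3.31 below mural cells on the log2 scale, which was not called in the unblocked fit (adjusted p = 0.0588) and passed with the brain as a block (adjusted p = 0.0388). Microglia exceeded endothelial cells by 4.75 (adjusted p = 0.00974). Without brain N-340 that difference was 3.21 (adjusted p = 0.0667) and without brain N-343 it was 5.10 (adjusted p = 0.0917).

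Per kb of exon, the 2 chains were at 125 ± 63.6 (*Tap1*) and 171 ± 46.5 (*Tap2*) in microglia and at 6.42 ± 6.46 and 69.6 ± 43.2 in mural cells (SD, n = 3). In endothelial cells both were low and widely spread, at 13.3 ± 22.4 and 16.6 ± 22.2. Neural cells had 4.03 ± 0.879 and 1.97 ± 0.939.

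*Tapbp* encodes tapasin, which bridges TAP and empty class I molecules, on chromosome 17 from 33915899 to 33929292 on the plus strand. Microglia held 3256, 4018 and 4736 normalized counts. Endothelial libraries held 1536, 1361 and 1385, neural libraries 526, 545 and 547, and mural libraries 445, 353 and 378. The populations did not overlap, and replicates were close to each other. Microglia exceeded endothelial cells by 1.47 (SE 0.18, adjusted p = 7.40e-05), mural cells by 3.34 (adjusted p = 1.43e-07) and neural cells by 2.87 (adjusted p = 2.30e-07). Endothelial cells exceeded mural cells by 1.87 and neural cells by 1.40. The gene starts within *Zbtb22*, which is read in the same direction over 3422 shared bases of gene span and had mean levels of 274 to 1104 normalized counts, highest in neural cells.

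*Psmb8* and *Psmb9* encode 2 of the catalytic subunits that replace standard ones in the immunoproteasome. They lie beside the *Tap* genes on chromosome 17, from 34197721 to 34201454 on the plus strand and from 34181987 to 34187764 on the minus strand. *Psmb8* was at 4487, 4209 and 3568 normalized counts in microglia. The endothelial libraries held 0 reads of it, the mural libraries 22.7, 0 and 5.64 normalized counts, and the neural libraries 2.67, 1.11 and 3.17. Microglia were therefore at least 2632-fold higher than endothelial cells, taking 3 reads over the endothelial group as the limit that 0 reads allow. They exceeded mural cells by 9.56 (SE 0.96, adjusted p = 1.69e-05) and neural cells by 10.32 (adjusted p = 5.08e-06) on the log2 scale.

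*Psmb9* was at 1411, 544 and 809.5 normalized counts in microglia. Outside microglia the highest library was an endothelial one with 19.6, and the others held 0 to 2.84. Microglia exceeded endothelial cells by 7.64 (SE 0.99, adjusted p = 0.000125), mural cells by 9.25 (adjusted p = 2.75e-05) and neural cells by 9.01 (adjusted p = 1.80e-05). On this fitted log2 scale they were the steepest contrasts of the set together with *Psmb8*, which need not hold for ratios of means.

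The 4 genes *Psmb9*, *Tap1*, *Psmb8* and *Tap2* span 34335 bases in that order. *Psmb9* and *Tap1* are read in opposite directions and overlap by 212 bases at their starts, and whether the counting used strand was not given, so reads there cannot be assigned for certain. Neighbours did not share 1 pattern: *Tap2* was at 129 to 445 normalized counts in mural libraries, where *Psmb9* was at 0 to 1.75 and *Psmb8* at 0 to 22.7.

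*Nlrc5*, the class I transactivator gene, is on chromosome 8 from 94434356 to 94527272 on the plus strand. It was the least abundant of the 10 genes in microglia, with 0, 200.4 and 229 normalized counts in brains N-340, N-343 and N-346. Neural cells had an even 16, 13.8 and 16.9. Endothelial libraries held 3.54, 0 and 0, the first from 2 reads, and mural libraries held 0 throughout. The microglial library of brain N-340 lay below all neural libraries and the other two lay far above them. Microglia were at least 202-fold higher than mural cells as a mean over 3 libraries, with 3 reads over the mural group as the limit. The fitted difference of 5.17 (SE 1.69) was called (adjusted p = 0.033) even though the groups overlapped at 0, and it was 3.92 without brain N-343 (adjusted p = 0.282) and 3.83 without brain N-346 (adjusted p = 0.287). It was also not called with no minimum (adjusted p = 0.0584) or without the neural libraries (adjusted p = 0.0676). Against endothelial cells the difference of 4.44 was not called (adjusted p = 0.0682), while without brain N-340 it was 7.75 (adjusted p = 0.000264). It also passed with a pseudocount of 10 (2.85, adjusted p = 0.0359) and, on recovered reads, with edgeR (6.90, adjusted p = 0.0422) and DESeq2 (6.98, adjusted p = 0.00897). Against neural cells it was 1.12 (adjusted p = 0.596) and without brain N-340 it was 3.72 (adjusted p = 0.0024). The mural libraries were at least 22-fold lower than the neural ones, and the fitted difference of −4.05 was not called (adjusted p = 0.0639) but passed without brain N-340 (−4.03, adjusted p = 0.0021), with a pseudocount of 0.1 (−7.29, adjusted p = 0.0364), with edgeR (−7.28, adjusted p = 0.0291) and with DESeq2 (−6.75, adjusted p = 0.00982).

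**Figure D3:**
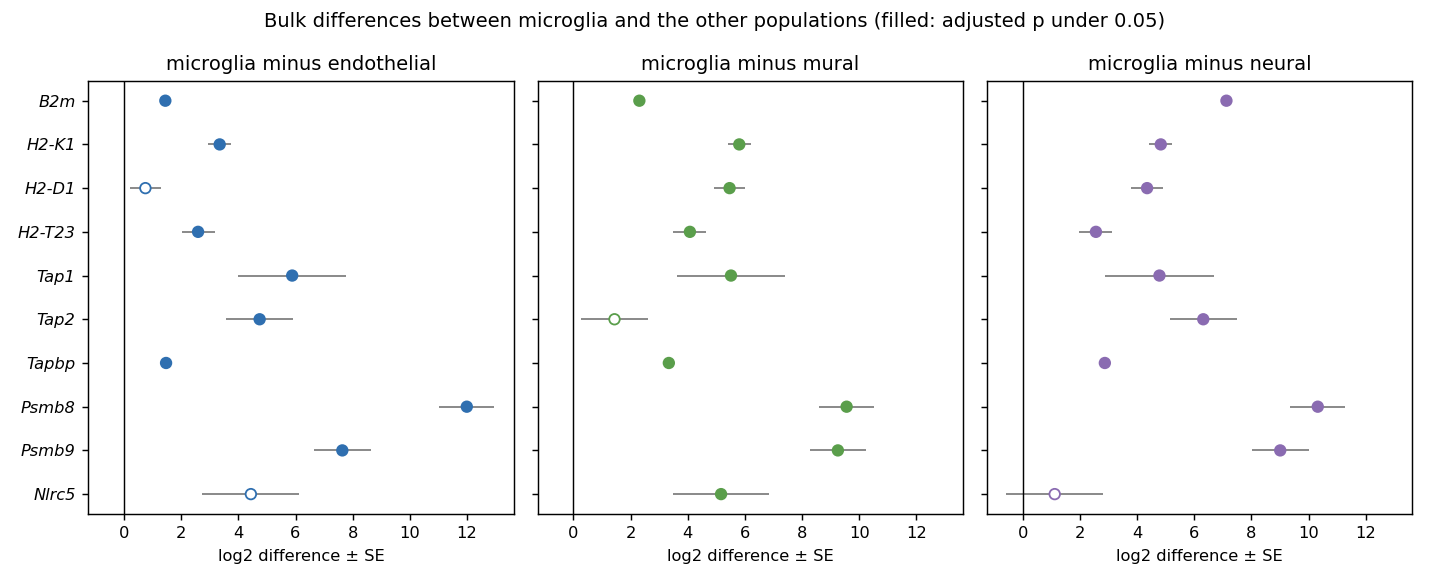
Log2 difference ± SE (horizontal axis) between microglia and endothelial, mural or neural cells for each of the 10 genes in the bulk libraries, with filled points for an adjusted p under 0.05. Differences reach 11.99 for *Psmb8* against endothelial cells, which held 0 reads of it, so that this value depends on the pseudocount. The open points are *H2-D1* and *Nlrc5* against endothelial cells, *Tap2* against mural cells and *Nlrc5* against neural cells.

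Among the remaining populations, endothelial cells were higher than mural cells for *B2m*, *H2-K1*, *H2-D1* and *Tapbp*, which were 4 of 10 genes, with 0 lower, beside 14.3% and 13.5% of all genes tested. With the brain as a block the counts were 5 and 1, beside 13.5% and 12.7% of all genes. The same 4 genes were called higher in endothelial than in neural cells and 0 lower, beside 27.1% and 30.6%. Between mural and neural cells, *B2m* and *Tap2* were called higher and *H2-T23* and *Tapbp* lower, 2 of 10 each way, where 25.8% of all genes were called higher and 28.7% lower. Those shares of the 10 genes were close to the background. *H2-T23* was 1.52 below neural cells (SE 0.58, adjusted p = 0.0447) and *Tapbp* 0.47 below (SE 0.18, adjusted p = 0.0452). The *Tapbp* call was lost with the brain as a block (adjusted p = 0.0762) and with a pseudocount of 10 (adjusted p = 0.0507). With no minimum neither was called (adjusted p = 0.0537 for *H2-T23* and 0.0616 for *Tapbp*), nor with edgeR on recovered reads (−1.35, adjusted p = 0.0803, and −0.44, adjusted p = 0.0676). Quantile normalization moved the median of all genes in this comparison from −0.13 to 0.08, and it turned the *Tapbp* difference to 0.07 (adjusted p = 0.781) and left that of *H2-T23* at −1.26 (adjusted p = 0.0868). Relative to that median the *Tapbp* difference was −0.33 without and −0.0037 with quantile normalization, and that of *H2-T23* was −1.38 and −1.34. The *H2-T23* difference was −1.29 without brain N-340 (adjusted p = 0.156) and −1.34 without brain N-343 (adjusted p = 0.243). For *Tapbp* it was −0.39 without brain N-343 (adjusted p = 0.248) and −0.43 without brain N-346 (adjusted p = 0.165).

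In the single cells, sums over the cells of each plate and gate gave values for 9 of the 10 genes, since *H2-K1* was not analysed there. The values are CPM, the sum scaled to a common total of transcripts. Microglial-gate cells were again highest for 8 of them, and *Nlrc5* was not detected in that gate. The filter of edgeR left 6 genes to test: *B2m*, *H2-D1*, *H2-T23*, *Tap1*, *Tapbp* and *Psmb8*. All 6 were called higher in the microglial gate than in the endothelial gate with edgeR's quasi-likelihood test and 0 lower, beside 17.5% and 18.7% of 9281 genes tested. The counts were the same against mural cells (18.9% and 18.8% of all genes) and neural cells (21.2% and 23.2%). *H2-D1*, *Tap1*, *Tapbp* and *Psmb8* passed the filter only with the microglial gate included, so it favoured a difference in them, and *B2m* and *H2-T23* passed without it. DESeq2 called 4, 6 and 5 of the 6 higher against endothelial, mural and neural cells, beside 8.51%, 9.76% and 13.5% of all genes, and 0 lower, beside 12%, 12.6% and 17.1%. DESeq2 did not call *Tap1* (2.75, adjusted p = 0.154) or *H2-T23* (0.72, adjusted p = 0.491) against endothelial cells, nor *H2-T23* against neural cells (1.25, adjusted p = 0.134). Without plate 3, 7 genes were tested with edgeR, *Psmb9* being added, and all 7 were called higher in the microglial gate than in each other gate (19.1%, 19.9% and 24.8% of 10091 genes) and 0 lower (22%, 22.5% and 24.4%). *Psmb9* had 0 transcripts in the other gates, so the filter favoured a difference in it too.

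*B2m* reached 2089, 1956 and 1891 CPM in the microglial gate on plates 1, 2 and 3. The endothelial gate gave 509.7, 333 and 171, the mural gate 229.6, 184 and 288, and the neural gate 33.2, 18.9 and 43.8. Endothelial and mural plates overlapped, unlike the bulk libraries. The log2 difference between microglial and endothelial gates was 2.55 (adjusted p = 1.75e-08). Endothelial cells exceeded mural cells by 0.85, which was not called (adjusted p = 0.084), while with the plate as a block it was 0.92 (adjusted p = 0.00233) and without plate 3 it was 1.12 (adjusted p = 1.77e-05). Over the fits without 1 plate the difference ran from 0.42 to 1.12, and on plate 3 the mural sum was above the endothelial one. *B2m* was the one gene called higher in endothelial than in neural cells (3.78, adjusted p = 2.76e-10, beside 18.3% of all genes) and in mural than in neural cells (2.92, adjusted p = 3.23e-07, beside 15.4%). In both comparisons 0 of the 6 were lower (18.1% and 17.7% of all genes). Between endothelial and mural cells 0 were called in either direction, beside 11.5% and 9.17%. There 5 of the 6 had an unadjusted p under 0.05 in edgeR, beside 29.2% of all genes. DESeq2 called 0 as well, beside 4.72% and 3.84% of all genes.

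*H2-D1* stood at 178, 141 and 118 CPM in the microglial gate and at 12.5, 11 and 0 in the endothelial gate. Mural sums were 4.75, 4.73 and 0 and neural sums 4.43, 7.1 and 0. The microglial and endothelial gates were far apart here, with a log2 difference of 3.91 (adjusted p = 1.71e-13), whereas in the bulk libraries the same difference was 0.75 and was not called. The share of cells with a transcript followed the same order. It was 73.4% in the microglial gate (94 of 128 cells, exact 95% interval 64.9 to 80.9) and 8% in the endothelial gate (4.81 to 12.3), near the 4.07% of the neural gate (1.33 to 9.23). Barcodes that no listed well used held 3 *H2-D1* transcripts (27.7 CPM, above every sum outside the microglial gate), or 0.00284 per barcode against 0.0844 per endothelial and 0.0407 per neural cell. Bulk and single cells differ in gate limits, kit and the end of the transcript that is read, and the part of each in this difference was not tested.

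For *H2-T23* the reverse held. The microglial gate held 60.7, 68.4 and 19.7 CPM, the endothelial gate 32.3, 39.3 and 28.5, the mural gate 20.6, 20.1 and 13.7 and the neural gate 22.1, 37.9 and 10.9, so that the microglial gate overlapped with every other gate through plate 3. The difference between microglial and endothelial gates was 0.97 (adjusted p = 0.0217), and it was 0.63 without plate 1 (adjusted p = 0.656) and 0.93 with no filter on low counts (adjusted p = 0.0704), neither of which passed. In bulk the same difference was 2.59. Without plate 1 the calls against mural and neural cells were lost as well (1.68, adjusted p = 0.103, and 1.19, adjusted p = 0.253).

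*Tapbp* (91.7, 96.3 and 138 CPM) and *Psmb8* (135, 90.1 and 118) were also clear of every other gate in the microglial gate. The highest value elsewhere was 23.6 CPM for *Tapbp*, in the endothelial gate, and 10.9 for *Psmb8*, from 1 transcript in the neural gate of plate 3. Log2 differences to endothelial cells were 2.40 for *Tapbp* (adjusted p = 1.43e-07) and 5.58 for *Psmb8* (adjusted p = 1.54e-13). *Tap1* had 34 transcripts in the microglial gate, 5 in the endothelial gate and 0 in the others, and its difference to the endothelial gate was 3.10 (adjusted p = 0.000212). *Psmb9* was found only in the microglial gate among the 4 gates, with 26 transcripts in 24 of 128 cells. For the 225 endothelial cells, 0 cells with a transcript allow a share of up to 1.33%, which limits cells with a detected transcript and not cells that express the gene. *Tap2* had 21, 7, 3 and 0 transcripts in the microglial, endothelial, mural and neural gates. Endothelial and mural cells were in the opposite order to the bulk means, and this difference was not tested. *Nlrc5* had 1 transcript in all, in an endothelial cell, and 0 of 128 microglial-gate cells had one, which allows a share of up to 2.34% of cells with a detected transcript.

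**Figure D4:**
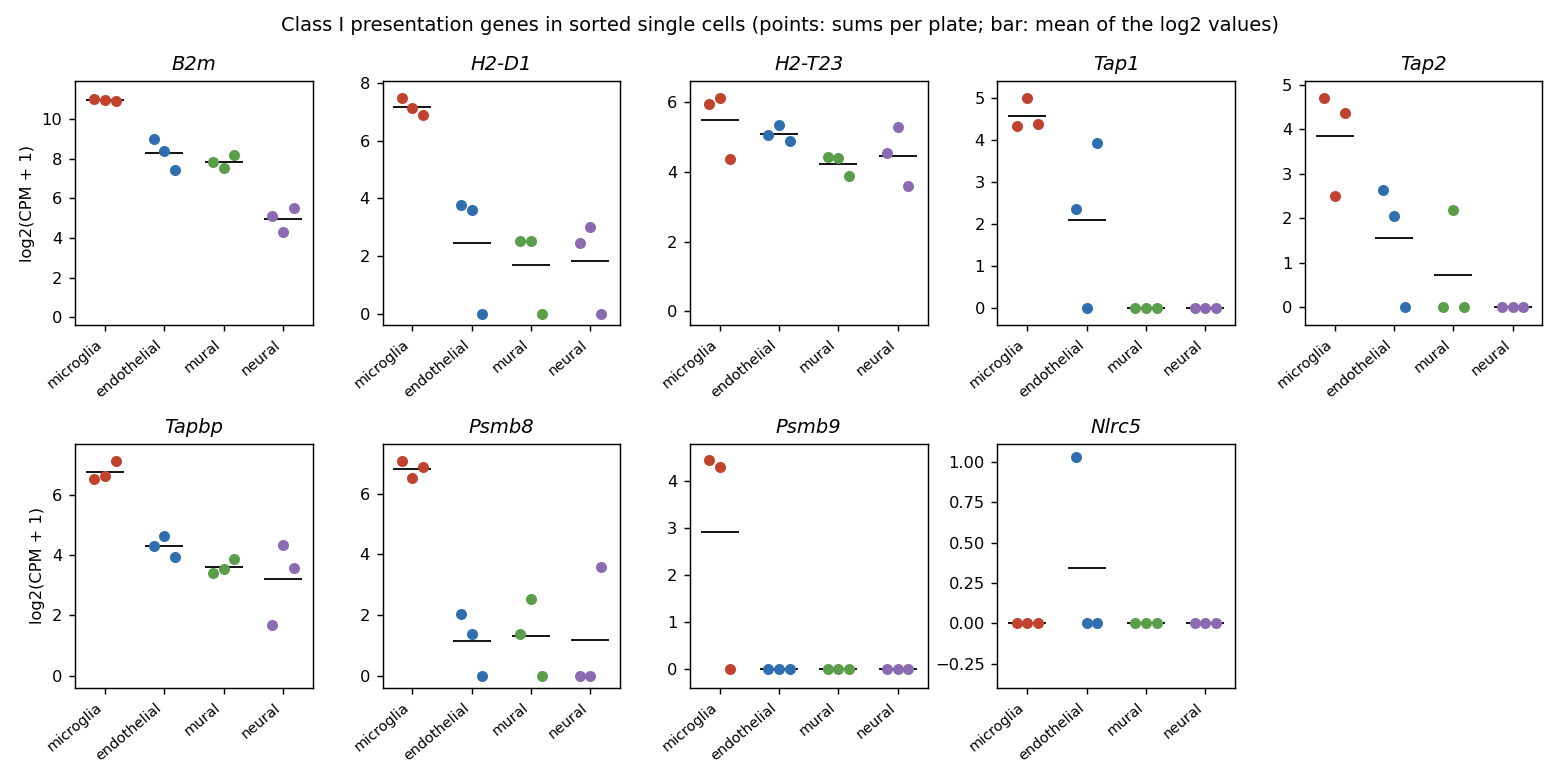
Level of the 9 genes with single-cell values as log2(CPM + 1), on the vertical axis, by sort gate. Points are sums over the cells of plates 1, 2 and 3 from left to right, and bars are means of the log2 values. The microglial gate is highest on every plate for *B2m*, *H2-D1*, *Tapbp* and *Psmb8*, while for *H2-T23* the microglial sum of plate 3 falls among those of the other gates.

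Cells with at least 1 *B2m* transcript made up 98.4% of the microglial gate (all but 2 of 128 cells, exact 95% interval 94.5 to 99.8), 79.1% of the endothelial gate (73.2 to 84.2), 65.7% of the mural gate (58.9 to 72.1) and 17.9% of the neural gate (11.6 to 25.8). The median depth was 10761, 6408, 6885 and 7717 transcripts per cell. Thinned to 1500 transcripts per cell, the shares were 92.2%, 41.8%, 27.6% and 7.32%. Intervals cover counting error only. Barcodes that no listed well used took up 1.06% to 8.78% of a library's transcripts, and 39 of their 108399 transcripts were *B2m* (360 CPM), which is above all neural and mural sums and 2 of the 3 endothelial ones. That was 0.0369 per unused barcode, against 0.22 per neural, 1.53 per mural and 3.17 per endothelial cell. The part of such free transcripts in the shares was not tested.

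The amount of *B2m* per cell also differed between the gates. Microglial-gate cells were the deepest. Scaled to CPM, the median per cell was 1994, 344, 160 and 0 in the microglial, endothelial, mural and neural gates. The counts that follow are not scaled to depth. The median number of *B2m* transcripts per cell was 21 in the microglial gate, 2 in the endothelial gate, 1 in the mural gate and 0 in the neural gate, with the highest cells at 56, 22, 9 and 2. At least 10 were found in 85.2% of microglial-gate cells, in 3.56% of endothelial cells and in 0 cells of the other gates. At least 3 of the 9 genes were found together in 79.7% of microglial-gate cells, 7.11% of endothelial cells, 2.38% of mural cells and 0 neural cells. Each of the 94 microglial-gate cells with an *H2-D1* transcript also had *B2m*. Since all but 2 of the 128 cells had *B2m*, this overlap was close to fixed and does not show a link between the 2 genes. In the endothelial, mural and neural gates, 14, 5 and 1 cells had both genes, and 4, 2 and 4 had *H2-D1* without *B2m*.

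**Figure D5:**
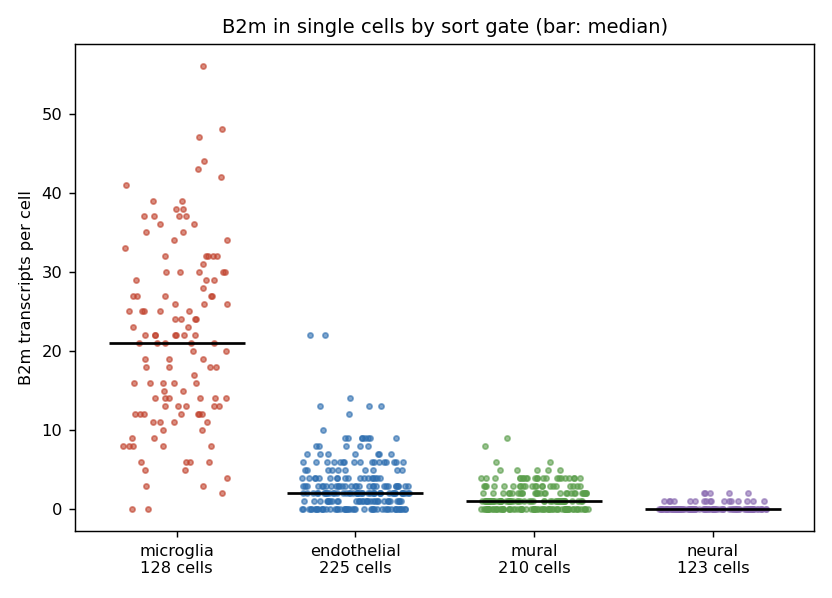
*B2m* transcripts per cell (vertical axis) by sort gate, 1 point per kept cell, with bars at the median. The medians are 21, 2, 1 and 0 in the microglial, endothelial, mural and neural gates, and 8 endothelial cells reach 10 or more.

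In the microglial gate, 56 of 128 cells held a transcript of a border macrophage, monocyte or neutrophil marker, 47 of them of *Mrc1*. The other markers with values were rare: *Ccr2* was found in 7 cells, *Pf4* in 6, *F13a1* in 4, *S100a8* in 3, *Ly6c2* in 1 and *Lyve1* in 0. The 72 cells without a marker transcript held 2067 CPM of *B2m*, 156 of *H2-D1*, 111 of *Psmb8* and 98.9 of *Tapbp*, against 1962, 161, 116 and 91.6 in the 56. For *Tap1* the values were 16 and 35.4 CPM, and for *H2-T23* 50.8 and 77.2. Over the 72 cells, edgeR's filter left 5 genes, of which 4 were called higher than in the endothelial gate (*B2m*, *H2-D1*, *Tapbp* and *Psmb8*) and all 5 higher than in the mural and neural gates, beside 15.5%, 16.4% and 20.6% of 8003 genes. In the same comparisons 0 were lower, beside 18.7%, 20.4% and 22.4%. *H2-T23* was not called against the endothelial gate (0.60, adjusted p = 0.259), and *Tap1* was not tested.

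Other genes of the pathway are counted below beside the same 17% of all genes called higher in microglia than in endothelial cells and 15.3% called lower. Of the 16 other class I and class I-like genes, 9 were tested in bulk, and 4 were called higher in microglia than in endothelial cells and 0 lower. They were *H2-T24* (log2 difference 2.57), *H2-Q4* (2.39), *Fcgrt*, the neonatal Fc receptor (2.07), and *Hfe*, a regulator of iron uptake (1.78). Against mural cells 2 of the 9 were higher and 1 lower, beside 20.1% and 17.9% of all genes, so these shares were near the background. The lower one was *H2-T22*, which was highest in mural cells at 708 to 1028 normalized counts, against 350 to 475 in microglia, 248 to 502 in endothelial cells and 89.2 to 108 in neural cells. Mural cells exceeded neural cells in *H2-T22* by 3.17 (adjusted p = 9.66e-06). *H2-Q4* was at 0 in every mural library and at 92.1 to 93.3 in neural libraries, and the close-copy limit above applies to these genes too. *H2-T22*, and *Erap1* and *Rfx5* below, were picked out after their values were seen.

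Of 7 genes for peptide trimming and loading, 2 were called higher in microglia than in endothelial cells and 0 lower, the lectin chaperone genes *Calr* (0.55) and *Canx* (0.48). *Erap1*, the trimming peptidase of the endoplasmic reticulum, was at 2670.2 to 2918 normalized counts in microglia and 72.4 to 731 in endothelial cells, a difference that was not called (3.40, adjusted p = 0.092). Of 8 other proteasome genes 4 were higher and 0 lower. They were *Psmb10*, which encodes the remaining catalytic immunoproteasome subunit (2.19), the activator genes *Psme1* (0.92) and *Psme2* (1.44), and *Psme3* (0.91). *Psmb10* was found in every library, at 2503 to 3074 normalized counts in microglia, 473 to 934 in endothelial cells, 565 to 661 in mural cells and 109.5 to 131 in neural cells.

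Of 16 regulators of class I transcription, 3 were called higher in microglia than in endothelial cells and 1 lower. The share called higher was near that of all genes. *Irf8*, a macrophage transcription factor, led with 8.13 (12532 to 15679 against 17.7 to 112 normalized counts), followed by *Irf1* (4.94) and the CCAAT-binding subunit gene *Nfya* (1.87), while its partner *Nfyb* was lower (−0.82). *Rfx5*, whose product binds the X1 part of the class I module, was higher in neural cells than in microglia by 1.81 on the log2 scale (adjusted p = 0.015). All 4 interferon receptor genes were tested, of which 3 were higher in microglia than in endothelial cells and 0 lower. *Ifngr1*, a chain of the interferon-γ receptor, differed by 3.0 and *Ifngr2* by 1.36, and *Ifnar2*, of the interferon-α receptor, by 0.45. Of 7 genes listed as receptors for class I or related to them, 4 were tested. *Lilrb4a* and *Klrk1* were higher in microglia, with 0 reads in all other libraries, while *Cd247* was lower (−4.41) and *Pirb* was not called. MHC class II genes, which serve presentation to helper T cells, were called higher in 6 of 7 cases and lower in 0. The leading ones were *Cd74* (10.58), *H2-Aa* (9.10), *H2-DMa* (8.45) and *H2-Eb1* (8.36). The fitted values of *H2-Aa* and *H2-Eb1*, which were at 0 in endothelial cells, depend on the pseudocount. In the microglial gate of the single cells, *H2-DMa* was at 30.7 CPM and *Cd74* at 5.84, while *H2-Aa* and *H2-Eb1* were at 0 there and at 0.645 and 5.16 in the mural gate. Of the interferon receptor genes, *Ifngr1* (2.46) and *Ifngr2* (1.20) were also called higher in the microglial than in the endothelial gate with edgeR, *Ifnar1* was called lower (−1.36, adjusted p = 0.00952) and *Ifnar2* was not called (−0.33, adjusted p = 0.412).

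Pearson correlations of log2(normalized count + 1) over the 12 libraries rest mostly on the 4 populations and share library and depth. For *B2m* they were highest with *Selenop* (r = 0.997), *Arpc1b* (0.996) and *Casp8* (0.995). For *Tap1* they were highest with *Gm48194* (0.925), *Gm3052* (0.921) and *Tango2* (0.919), and for *Nlrc5* with *Tm9sf4* (0.934), *Gm23722* (0.919) and *Slc9a7* (0.906). Between members, *H2-K1* and *Tapbp* had the closest patterns (r = 0.97) and *B2m* and *Nlrc5* had r = −0.08.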

How the data were processed

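The members and the gene lists were chosen with earlier results of these data known. Bulk values were deposited as normalized counts, a signal the authors made by dividing read counts per gene by a factor per library. The submitters' processing notes name BWA 0.6.2-r126, STAR, featureCounts, DESeq2 and mm10, without saying which served which data. Whole reads were recovered: all values up to 100 reads lay within 0.01 of a whole number. Of 53465 Ensembl identifiers, 53360 matched GENCODE vM21 (GRCm38). Genes with a mean of at least 10 (19765) were tested with limma 3.58.1 (trend) on log2(normalized count + 1) in 1 fit over the 12 libraries, with Benjamini-Hochberg adjustment and a threshold of 0.05. A fold is a ratio of mean normalized counts, and log2 differences understate the change of low genes.

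The single-cell values the authors deposited are estimated (expected) counts of transcripts, corrected for identifier collisions. They were summed per plate and sort gate over cells above 1500 transcripts, rounded, and tested with edgeR 4.0.16 (quasi-likelihood, TMM) over 9281 genes. Wells were single sorts and no doublet caller was run. Of 55 pairs of libraries, 25 share the same 96 well barcodes. *H2-K1* was not analysed in single cells. Confidence intervals are exact (Clopper-Pearson, 95%). A floor is 3 counts.

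Named genes were the 10 members, the 4 largest called differences between microglia and endothelial cells in each other list, and the 3 genes most correlated with *B2m*, *Tap1* and *Nlrc5*. A shared number was read as a shared brain, because the 4 populations were collected together from 3 brains, and a plate was read as a shared batch. Same-numbered deviations correlated by −0.05 to 0.08 over 18 pairs in bulk and by −0.03 to 0.10 over 18 pairs of single-cell sums. Alternatives were other pseudocounts (0.1 and 10), no minimum, quantile normalization, the replicate block, edgeR and DESeq2 1.42.0 on recovered reads, leaving out each replicate or the neural libraries, other cell filters and thinning. Leaving out cells with markers of border macrophages, monocytes or neutrophils was added after seeing the data. The tests were tried on simulated data. Promoters are RefSeq sequences of GRCm38.p6, searched on both strands.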

Additional observations from a re-analysis of the deposited data

How the results depend on the processing

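Of the differences with a value under every alternative, 28 of 47 in bulk and 15 of 16 in single cells kept their direction and their side of the threshold throughout. In single cells *H2-T23* had a value under 8 and *Tap1* under 5 of the 9 alternatives. Between endothelial and mural cells, 1 gene was called lower with a pseudocount of 10 or the replicate block (*Tap2*) and 1 with edgeR or DESeq2 (*Psmb8*), and between endothelial and neural cells 1 was lower with a pseudocount of 0.1. Over all genes, 4735 to 6106 were called between endothelial and mural cells in these settings and 11033 between endothelial and neural cells, in either direction. Between mural and neural cells the count of lower genes was 1 with a pseudocount of 10 or the replicate block (*H2-T23*), 1 with edgeR (*Nlrc5*), 0 with no minimum or quantile normalization and 4 with DESeq2, and quantile normalization turned *Tapbp* to a difference of 0.073. Over all genes, these settings called 10391 (edgeR) to 12575 (no minimum) in either direction, DESeq2 among them with 11007 of 19046. The plate as a replicate block gave 1 gene higher in endothelial than in mural single cells, beside 2113 of 9281 genes called in either direction. Beyond the calls given with the results, pairing by brain or plate changed no other call.

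Leaving out 1 brain gave 5 to 8 genes higher in microglia than in endothelial cells, 0 to 1 lower in endothelial than in mural cells, 0 to 2 lower in endothelial than in neural cells, and 1 to 2 higher and 0 to 2 lower in mural than in neural cells. Of the 19678 to 19796 genes in these fits, 4838 to 4917, 3519 to 4060, 9095 to 9593 and 8489 to 9014 were called in either direction. For *Nlrc5*, microglia minus neural cells ran from −0.20 to 3.72. Leaving out 1 plate gave 4 to 7 genes higher in the microglial gate than in each other gate. Against endothelial, mural and neural gates, 1291 to 4147, 1446 to 4288 and 1832 to 4969 of all genes were called there in either direction. It gave 0 to 1 higher in endothelial than in mural cells, beside 571 to 2561 of all genes called in either direction. Shares of cells with a transcript were 97.1% to 100% (microglial gate) and 67.6% to 85.7% (endothelial) for *B2m*, 0% to 1.49% (neural) for *Psmb8*, and 6.25% to 17.1% (microglial) and 0% to 2.61% (mural) for *Tap2*. The causes were not tested.

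Thinned to 1500 transcripts, shares in microglial, endothelial, mural and neural gates were 92.2%, 41.8%, 27.6% and 7.32% for *B2m*, 18.8%, 0.889%, 0.476% and 0.813% for *H2-D1*, 10.2%, 5.78%, 3.81% and 6.50% for *H2-T23*, 14.1%, 1.78%, 2.38% and 1.63% for *Tapbp*, and 12.5%, 0%, 0% and 0% for *Psmb8*. In the microglial gate they were 3.91% for *Tap1*, 1.56% for *Tap2* and 1.56% for *Psmb9*. At a minimum of 3000 transcripts the microglial share for *B2m* was 100%. Depth limits the single-cell values: *Psmb9*, *Tap2* and *Nlrc5* had 26, 31 and 1 transcripts over the 4 gates.

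Over all genes, 5496 differed between endothelial and mural cells in bulk and 3519 without brain N-343. In single cells 3358 genes differed between microglial and endothelial gates (1905 with DESeq2, 1291 without plate 1, 1308 without plate 2), 3498 between microglial and mural (2074, 1446 and 1480), 1919 between endothelial and mural (794, 594 and 571), 3381 between endothelial and neural (1966, 1265 and 1307) and 3069 between mural and neural gates (1700, 1287 and 1050). Microglial and neural gates differed in 4116 genes, 1832 without plate 1 and 1845 without plate 2.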

Other observations

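Wells of 1 further gate, medium or low for PDGFRβ, stood in no comparison. Of its 25 wells, 23 held more than 1500 transcripts. *B2m* was found in 10 of these cells (43.5%, exact 95% interval 23.2 to 65.5) at 109.7 CPM, *H2-D1* in 4 and *H2-T23* in 4, while the other 6 members with single-cell values were found in 0 of the 23. Another 37 wells carried no gate and 0 of them passed the limit.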
